A study of Mus musculus with 11 samples.

Results

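The members are 40 genes of central carbon metabolism: 17 genes of glycolysis and 23 genes of the tricarboxylic acid (TCA) cycle and its feeder reactions. They are listed by symbol as enzymes of these pathways, and the list was drawn up with earlier results of these data known. Each was found on the arrays through the RefSeq accession of its probes, and 40 of the 26104 features measured above background belong to the set. Gene expression was measured in the right hemisphere cortex of 22 mice on 11 Agilent arrays read in 2 colours, each array holding RNA of 1 mouse labelled with Cy5 and of another labelled with Cy3. Mice were on a C57/Bl6J background and aged 5 to 7 months.

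TC mice (n = 6) carried the transgene pair GFA2-tTa/TetO-VP16-CREB, in which an astrocyte promoter (GFA2) drives a transactivator that in turn switches on VP16-CREB, a CREB protein that is always active, and received a focal cryolesion. WTC mice (n = 5) were wild type and received the same lesion. T mice (n = 5) carried the transgenes and had intact cortex, and WT mice (n = 6) were wild type with intact cortex. The lesion was made by holding a dry ice pellet on the brain surface for 30 s, and RNA was taken 3 days later. The question addressed by the comparison of TC with WTC is what active CREB in astrocytes does to the response to injury. The arrays show RNA of all cells of the tissue together, so a transgene restricted to astrocytes is read through a mixture, and fewer cells of a type cannot be told apart from less RNA per cell.

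Glycolysis splits glucose into pyruvate in the cytosol. The pyruvate dehydrogenase complex then turns pyruvate into acetyl-CoA, which the TCA cycle oxidises in mitochondria. In brain, neurons depend heavily on mitochondrial oxidation, astrocytes are known for a high glycolytic capacity and lactate release, and activated phagocytes are known to raise glucose use. Several steps have isoforms with different homes: Aldoc and Eno2 are textbook markers of astrocytes and of neurons, and Hk2 is the inducible hexokinase of muscle, fat and activated immune cells.

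Between 56.6% and 65.3% of non-control spots were well above background per channel, and no spot was saturated (0 flags). All 56 probes of the 40 members were well above background in all 22 channels. Arrays A to F lie on slide 1 and arrays I to M on slide 2, and every WT mouse is on slide 1. Cortical neuron markers, all 15 of 15 kept, averaged log2 levels of 13.4 to 14.1 in TC mice, 13.7 to 14.1 in WTC mice, 14.1 to 14.3 in T mice and 14.2 to 14.4 in WT mice. Markers of striatum and choroid plexus, tissues next to the cortex, varied widely between mice of the same group: the mean of 9 striatum markers ran from 9.0 to 11.7 in TC mice, 8.55 to 12.4 in WTC mice, 9.14 to 12.1 in T mice and 9.39 to 13.0 in WT mice. The mean of 7 choroid plexus markers ran from 7.53 to 12.9 in TC mice, 9.20 to 12.9 in WTC mice, 8.26 to 10.1 in T mice and 7.89 to 12.9 in WT mice. One lesioned mouse, the TC mouse of array I, was unlike its group in some marker lists: its 9 markers of dividing cells averaged 7.09. The 5 remaining TC mice had 8.74 to 10.6 and the T mice 6.89 to 7.56. Its microglia and macrophage markers averaged 10.6, where the 5 remaining TC mice had 11.6 to 12.7. Its 10 astrocyte markers averaged 12.8, where the 5 remaining TC mice had 12.9 to 13.3 and the T mice 12.0 to 12.3. The channel 2 label of that array calls this mouse unlesioned where the title calls it lesioned. That of array K does so for its TC mouse, and that of array J calls the T mouse of its title TC. The TC mouse of array K averaged 10.6 for dividing cell markers and 12.7 for microglia and macrophage markers. T mice reached at most 7.56 and 10.79. The T mouse of array J averaged 6.89 and 10.71, below the 5 remaining TC mice in both lists. For arrays J and K these markers follow the titles, so values given with the channel 2 labels regroup those mice against their markers. List medians and Hk2 are also given without arrays I, J and K.

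Because the transgene product is a form of CREB, the promoters of the members were searched for its binding letters. The windows are the 250 bases before each RefSeq transcription start in GRCm38.p6, found for 39 of the 40 members (17 glycolysis and 22 TCA members, 60 windows). The complete cyclic AMP response element, TGACGTCA, stood in a window of 0 of 17 glycolysis members and 2 of 22 TCA members, Mdh2 and Ogdh, against 1.77% of 27025 genes. Its shorter form TGACG, searched on both strands and contained in the complete element, stood in 3 of 17 glycolysis and 7 of 22 TCA members, against 19.8% of all genes. The letters ACGTG or GCGTG, the core that hypoxia-inducible factors read, stood on either strand in 14 of 17 glycolysis and 15 of 22 TCA members, against 41.5% of all genes. They can share letters with the shorter form. A match is a stretch of letters and was not tested as a binding site. The windows of Tpi1, Eno2 and Gpi1, which are not shown, held none of the letters searched for. The 5 promoters below belong to the members with a complete element and to Pgk1, Gapdh and Hk2, picked for display, each written 5′ to 3′ on the strand of its gene.
Mdh2, chr5:135778399-135778648, plus strand, TGACGTCA in capitals: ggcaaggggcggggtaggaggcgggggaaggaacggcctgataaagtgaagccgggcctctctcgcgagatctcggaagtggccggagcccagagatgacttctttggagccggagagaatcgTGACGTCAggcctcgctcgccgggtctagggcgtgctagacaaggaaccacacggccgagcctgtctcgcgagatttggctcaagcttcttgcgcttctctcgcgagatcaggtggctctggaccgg
Ogdh, chr11:6291347-6291596, plus strand, 1 of 6 windows, TGACGTCA in capitals: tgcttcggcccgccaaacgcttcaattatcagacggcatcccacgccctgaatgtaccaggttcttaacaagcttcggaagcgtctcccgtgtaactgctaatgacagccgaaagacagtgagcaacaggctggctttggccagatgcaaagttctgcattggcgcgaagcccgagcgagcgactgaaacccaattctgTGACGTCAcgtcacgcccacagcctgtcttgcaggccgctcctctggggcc
Pgk1, chrX:106186850-106187099, plus strand, ACGTG on either strand in capitals: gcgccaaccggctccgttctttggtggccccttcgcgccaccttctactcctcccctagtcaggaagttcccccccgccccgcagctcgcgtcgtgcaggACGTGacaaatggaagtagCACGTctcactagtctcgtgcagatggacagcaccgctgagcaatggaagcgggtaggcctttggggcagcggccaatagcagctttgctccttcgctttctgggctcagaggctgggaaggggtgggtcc
Gapdh, chr6:125165774-125166023, minus strand, GCGTG on either strand in capitals: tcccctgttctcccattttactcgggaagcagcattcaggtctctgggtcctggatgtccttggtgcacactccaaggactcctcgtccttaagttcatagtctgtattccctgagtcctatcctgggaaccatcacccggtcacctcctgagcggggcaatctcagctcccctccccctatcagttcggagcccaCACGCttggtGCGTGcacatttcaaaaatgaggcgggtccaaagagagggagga
Hk2, chr6:82774455-82774704, minus strand, ACGTG on either strand in capitals: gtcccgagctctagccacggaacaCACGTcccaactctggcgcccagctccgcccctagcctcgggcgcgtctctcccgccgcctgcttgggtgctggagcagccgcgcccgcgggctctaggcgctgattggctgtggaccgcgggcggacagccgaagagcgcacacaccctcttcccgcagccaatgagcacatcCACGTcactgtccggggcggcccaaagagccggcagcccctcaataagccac

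Levels below are log2 channel intensities of 1 mouse each, normalized across arrays with the dye effect of the probe removed. For the groups of 6 mice (TC and WT) the lowest, the median and the highest are given, and for the groups of 5 (WTC and T) each mouse. Differences are log2 ratios ± SE from a limma fit of the 11 array ratios (ratio fit) with p-values adjusted by the Benjamini-Hochberg method over all 26104 features. A second limma fit took the 22 channels one by one (separate-channel fit, 25987 features), and adjusted p under 0.05 counts as passing in either. Each channel holds a separate mouse, and levels of different genes are not compared, since probes differ in brightness.

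Most members had negative ratios after the cryolesion in wild-type cortex, and a few, led by Hk2, had positive ones. In the ratio fit of WTC minus WT, 0 of the 40 members passed, against 6 of all 26104 features (0.023%). In the separate-channel fit 9 of 17 glycolysis members fell and 1, Hk2, rose, and 8 of 22 TCA members fell and 2, Idh2 and Pdk4, rose. Leaving out array I let 3 glycolysis and 4 TCA members pass in the ratio fit, along with 4.75% of all features higher and 0.762% lower. In the separate-channel fit 14.3% of all features rose and 12.1% fell. At an unadjusted p under 0.05 in the ratio fit, 7 glycolysis and 7 TCA members were lower and 1 and 2 were higher, against 6.93% of all features lower and 12.7% higher. The median log2 ratio was -0.25 over the glycolysis members, 15 of 17 of them negative, and -0.20 over the TCA members, 16 of 23 negative. Over all features it was 0.0033. On the arrays of slide 1 alone, the medians were -0.21 and -0.21, and with slide as a fixed term in the separate-channel fit they were -0.21 and -0.23, with 4 and 4 members passing, against 9.23% of all features higher and 4.01% lower. Every WT mouse is on slide 1, and several members said below to fall in the separate-channel fit did not pass with this term. When each array was centred on its median and no loess curve was taken off, the medians were -0.44 and -0.42, while that of all features moved to -0.10.

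**Figure D1:**
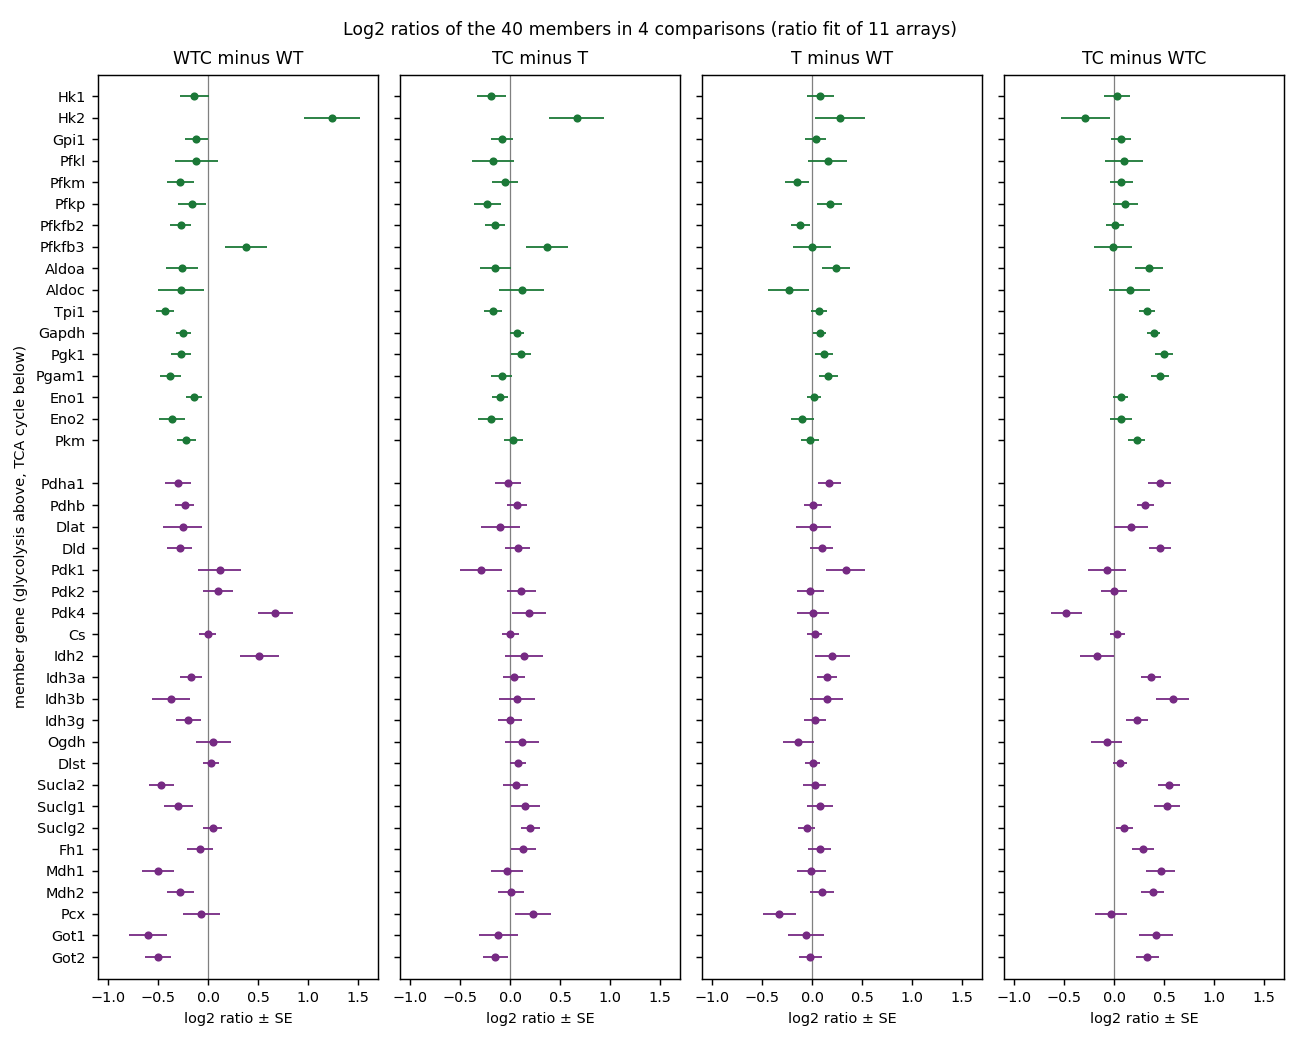
Log2 ratio ± SE (x axis) of each of the 40 members (y axis) in 4 panels (WTC over WT, TC over T, T over WT, TC over WTC), from the ratio fit of 11 arrays, with glycolysis members in green above and TCA members in purple below. In WTC minus WT, 31 of 40 points lie left of 0 with Hk2, Pdk4 and Idh2 far to the right, and in TC minus WTC 32 of 40 lie right of 0.

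Hk2 encodes hexokinase 2, which traps glucose in the cell as glucose 6-phosphate and is inducible. Its log2 level was 8.08, 9.10 and 10.01 in TC mice and 8.87, 8.97, 9.35, 9.69 and 10.42 in WTC mice. In intact cortex it was 7.69, 7.82, 7.96, 7.98 and 8.22 in T mice and 7.52, 7.78 and 7.96 in WT mice. All 5 WTC mice lay above all 6 WT mice, and in TC mice 5 of 6 lay above all T mice while the mouse of array I, at the lowest value, lay among them. WTC exceeded WT by 1.23 ± 0.28 (2.35-fold, adjusted p = 0.097) in the ratio fit and by 1.57 ± 0.26 (adjusted p = 5.8e-04) in the separate-channel fit. TC exceeded T by 0.66 ± 0.27 (adjusted p = 0.40) and by 0.99 ± 0.26 (adjusted p = 0.027) in the same fits. Without the TC mouse of array I, the separate-channel values were 1.64 for WTC minus WT and 1.26 for TC minus T (adjusted p = 0.0010). The ratio for TC minus T was 0.24 on slide 2, which holds arrays I and J. On slide 1 it was 1.42, but there it rests on the 1 TC mouse of array C, set against T mice through WT mice. Without arrays I, J and K it was 1.15 (adjusted p = 0.26), and with their channel 2 labels 0.46 (adjusted p = 1.0). Hk1, the constitutive brain hexokinase, was at 14.55, 14.73, 15.05, 15.20 and 15.48 in WTC mice and 15.27, 15.39 and 15.49 in WT mice and did not pass in either fit (-0.14 ± 0.15).

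Over the 22 mice, the features whose level followed Hk2 most closely included Slamf9, Irf8, Arhgap9 and Apobec1, with Pearson r between 0.981 and 0.987. Irf8 is a transcription factor of the macrophage lineage. The points share the arrays and the lesioned and intact groups, and the values describe these mice. Markers of microglia and macrophages, 11 of 12 kept, had a median log2 ratio of 1.29 in WTC minus WT and 0.82 in TC minus T, with 11 and 10 of them positive. Their part in the level of Hk2 was not tested.

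Of the phosphofructokinases, the enzymes that make their activator and Gpi1, only Pfkfb3 had a positive ratio in WTC minus WT, which did not pass. Pfkfb3, which makes the activator of phosphofructokinase and is an inducible isoform, was at 11.02, 11.16 and 11.52 in TC mice and 10.53, 11.21, 11.35, 11.46 and 11.62 in WTC mice. It was at 10.72, 10.84, 10.86, 10.93 and 11.15 in T mice and averaged 10.91 ± 0.12 in WT mice (SD, n = 6). Of the lesioned groups, 4 of 5 WTC mice lay above every WT mouse and the fifth, on array K, below all of them. The ratios of 0.38 ± 0.21 for WTC minus WT and 0.36 ± 0.21 for TC minus T did not pass (adjusted p = 0.37 and 0.52). Pfkfb2, the isoform of the same enzyme known from heart, was at 8.59, 8.79, 8.87, 8.96 and 9.11 in WTC mice and 9.16, 9.28 and 9.36 in WT mice. Those groups did not overlap, and the difference of -0.37 ± 0.10 passed in the separate-channel fit (adjusted p = 0.016). Pfkm, the muscle-type phosphofructokinase, likewise had no overlap, with 14.20, 14.26, 14.37, 14.42 and 14.47 in WTC mice and 14.63, 14.68 and 14.91 in WT mice (-0.35 ± 0.10, adjusted p = 0.018). The ratios were recomputed in 27 alternative settings (other processing, other fits or arrays left out), the separate-channel fit included. Pfkfb2 passed in 2 of them and Pfkm in 3. Pfkl and Pfkp, the liver and platelet types, had ratios of -0.12 ± 0.22 and -0.17 ± 0.14, and Gpi1, which turns glucose 6-phosphate into fructose 6-phosphate, of -0.12 ± 0.11. None of these 3 passed in either fit.

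Below the split into triose phosphates, most enzymes were lower after the lesion in wild-type cortex by the separate-channel fit. Tpi1, the isomerase that interconverts the triose phosphates, was at 15.28, 15.61 and 15.69 in TC mice and 14.92, 15.05, 15.23, 15.41 and 15.47 in WTC mice. It was at 15.73, 15.77, 15.78, 15.78 and 15.82 in T mice and 15.56, 15.79 and 15.84 in WT mice. Every WTC mouse lay below every WT mouse and every TC mouse below every T mouse. WTC minus WT was -0.43 ± 0.09 in the ratio fit (adjusted p = 0.096) and -0.50 ± 0.08 in the separate-channel fit (adjusted p = 6.4e-04), while TC minus T was -0.17 ± 0.09 and -0.22 ± 0.08 and did not pass (adjusted p = 0.48 and 0.11). Pgam1, phosphoglycerate mutase, was at 14.79, 15.09, 15.24, 15.54 and 15.88 in WTC mice and 15.75, 15.81 and 16.06 in WT mice, and the separate-channel difference was -0.50 ± 0.13 (adjusted p = 0.010). Pgk1, the first enzyme of the path that yields ATP and an X-linked gene, fell by the same fit with -0.41 ± 0.13 (adjusted p = 0.028), as did Gapdh, the dehydrogenase before it, with -0.25 ± 0.07 (adjusted p = 0.014). Every WT mouse is on slide 1, and with slide as a fixed term in that fit Gapdh was at -0.20 and did not pass (adjusted p = 0.071). Of 27 alternative settings, the separate-channel fit included, Tpi1 passed in 6 and Pgam1, Pgk1 and Gapdh in 2 each. One WTC mouse, on array A, lay among the WT mice for Pgam1, Pgk1 and Gapdh.

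The isoforms of aldolase and enolase can be set beside their cell types. Eno2, the neuronal enolase, was at 15.10, 15.32, 15.33, 15.47 and 15.53 in WTC mice and 15.85, 16.03 and 16.07 in WT mice, with no overlap, and fell in the separate-channel fit (-0.56 ± 0.12, adjusted p = 0.0023). Eno1, the enolase of most other cells, was at 15.72, 15.84, 15.94, 16.01 and 16.28 in WTC mice and 16.12, 16.21 and 16.34 in WT mice, and fell in that fit as well by a smaller amount (-0.23 ± 0.08, adjusted p = 0.039). That the 2 isoforms differ in their response was not tested. Aldoc, the astrocyte aldolase, was at 15.77, 16.80 and 17.55 in TC mice and 16.31, 16.42, 16.43, 16.67 and 16.83 in WTC mice. It was at 16.77, 16.82, 16.86, 16.90 and 16.91 in T mice and 16.88, 16.95 and 17.36 in WT mice. No WTC mouse reached the lowest WT mouse, yet the differences of -0.27 ± 0.23 and -0.42 ± 0.19 did not pass (adjusted p = 0.55 and 0.095). The TC mice span the widest range of the 4 groups for Aldoc, from the mouse of array K at the bottom to that of array I at the top. Aldoa, the ubiquitous aldolase, fell in the separate-channel fit (-0.39 ± 0.13, adjusted p = 0.034) with 16.46, 16.74, 16.86, 17.22 and 17.45 in WTC mice and 17.32, 17.36 and 17.57 in WT mice. The WTC mice at 16.46, 16.74 and 16.86 are on slide 2, and every WT mouse is on slide 1. On arrays A and B, which hold a WTC and a WT mouse together, the Aldoa ratio was 0.09 and -0.09. Pkm, the pyruvate kinase that closes the path, was at 15.09, 15.10, 15.14, 15.33 and 15.36 in WTC mice and 15.25, 15.39 and 15.54 in WT mice (-0.22 ± 0.10) and did not pass in either fit.

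**Figure D2:**
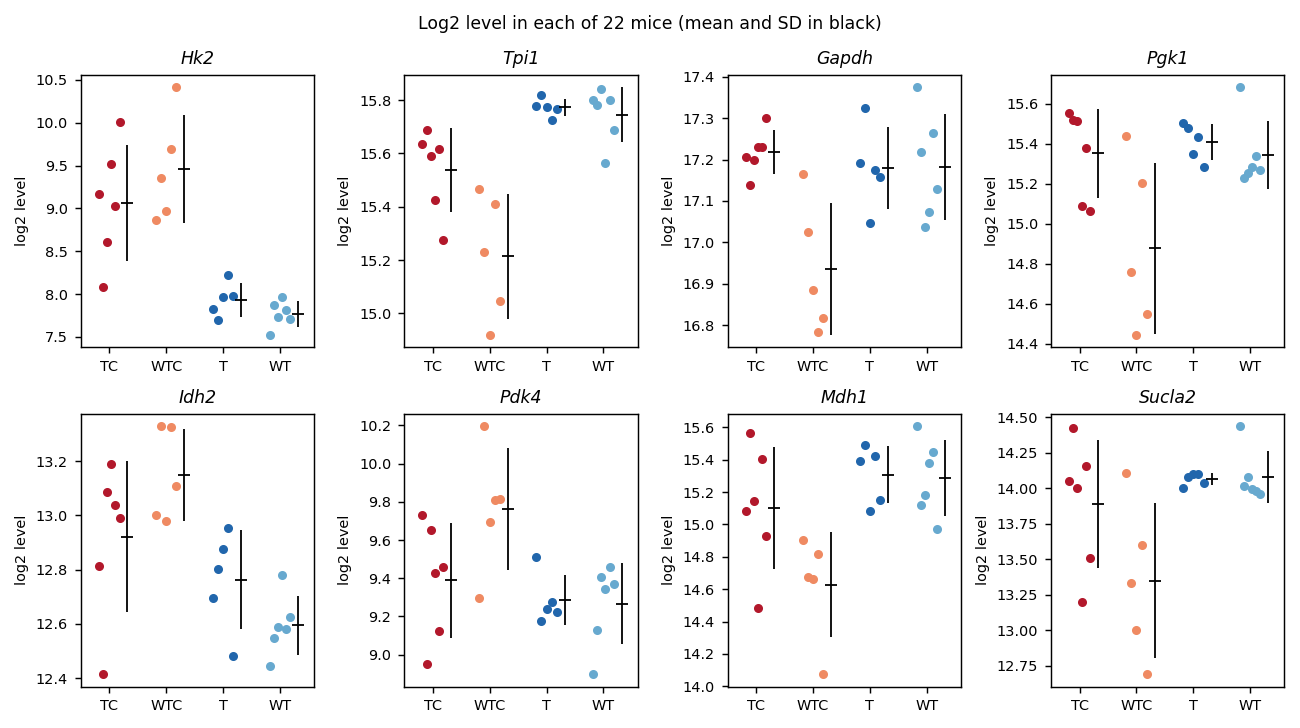
Log2 level (y axis) of Hk2, Tpi1, Gapdh, Pgk1, Idh2, Pdk4, Mdh1 and Sucla2 in each mouse of the groups TC, WTC, T and WT, with the group mean and SD in black (n = 6, 5, 5 and 6). The y axes do not start at 0 and differ between genes. WTC mice lie above WT mice for Hk2 and Idh2 and below them for Tpi1 and Mdh1 with no overlap, and the TC mouse of array I is the lowest TC mouse for Hk2, Idh2 and Pdk4.

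Around the TCA cycle the pattern in wild-type cortex was mixed by enzyme. Pdk4, a kinase that switches off pyruvate dehydrogenase and is known to rise with fat oxidation, was at 8.95, 9.44 and 9.73 in TC mice and 9.30, 9.69, 9.81, 9.82 and 10.20 in WTC mice. It was at 9.18, 9.22, 9.24, 9.27 and 9.51 in T mice and 8.90, 9.36 and 9.46 in WT mice. Of the WTC mice, 4 of 5 lay above every WT mouse, and the difference was 0.67 ± 0.18 in the ratio fit (adjusted p = 0.11) and 0.55 ± 0.14 in the separate-channel fit (adjusted p = 0.010). The other kinases, Pdk1 and Pdk2, had ratios of 0.11 ± 0.22 and 0.10 ± 0.15 and did not pass. Of the complex they act on, the E1 subunits Pdha1 and Pdhb fell in the separate-channel fit (-0.41 ± 0.15 and -0.29 ± 0.10, adjusted p = 0.047 and 0.043), as did the E3 subunit Dld (-0.44 ± 0.14, adjusted p = 0.026). Pdha1, Pdhb and Dld each passed in 2 of 27 alternative settings, that fit included. The E2 subunit Dlat did not pass (-0.45 ± 0.19, adjusted p = 0.088).

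Idh2, the mitochondrial isocitrate dehydrogenase that makes NADPH, was at 12.98, 13.00, 13.11, 13.33 and 13.33 in WTC mice and 12.45, 12.59 and 12.78 in WT mice. The groups did not overlap, and the separate-channel difference was 0.54 ± 0.13 (adjusted p = 0.0051), beside 0.51 ± 0.19 in the ratio fit (adjusted p = 0.20). The NAD-linked enzyme of the same step has 3 subunits, and all had negative differences: Idh3g, which is X-linked, fell in the separate-channel fit (-0.35 ± 0.12, adjusted p = 0.037), and Idh3a and Idh3b had -0.29 ± 0.12 and -0.61 ± 0.23 and did not pass (adjusted p = 0.073 and 0.056). Cs, citrate synthase, which opens the cycle, was at 14.95, 15.05, 15.22, 15.33 and 15.34 in WTC mice and 15.23, 15.30 and 15.40 in WT mice, and its ratio of -0.01 ± 0.09 has a 95% interval of -0.20 to 0.18. Sucla2, the ATP-forming succinyl-CoA ligase subunit, was at 12.69, 13.00, 13.33, 13.60 and 14.11 in WTC mice and 13.96, 14.00 and 14.44 in WT mice and fell in the separate-channel fit (-0.66 ± 0.18, adjusted p = 0.015).

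The shuttle enzymes that carry reducing power between cytosol and mitochondria include the 3 TCA members with the most negative ratios in WTC minus WT, Got1, Got2 and Mdh1. Mdh1, the cytosolic malate dehydrogenase, was at 14.07, 14.66, 14.68, 14.82 and 14.90 in WTC mice and 14.97, 15.28 and 15.61 in WT mice, while Mdh2, the mitochondrial one, was at 15.18, 15.47, 15.77, 15.90 and 16.09 in WTC mice and 16.11, 16.22 and 16.28 in WT mice. Neither gene had an overlap between the groups. Both fell in the separate-channel fit (-0.62 ± 0.16 and -0.46 ± 0.13, adjusted p = 0.0088 and 0.017). Mdh1 passed in 6 and Mdh2 in 2 of 27 alternative settings, that fit included. Got2, the mitochondrial aspartate aminotransferase, was at 12.75, 13.16, 13.23, 13.36 and 13.78 in WTC mice and 13.67, 13.87 and 14.14 in WT mice and also fell (-0.58 ± 0.13, adjusted p = 0.0050). Got1, its cytosolic partner, had 14.11, 14.35, 14.44, 14.82 and 14.94 in WTC mice and 15.22, 15.33 and 15.68 in WT mice. It had no value on array J, so its ratio of -0.60 ± 0.19 (adjusted p = 0.15) comes from 10 arrays and it is absent from the separate-channel fit, although its WTC and WT mice did not overlap either. Ogdh, Dlst, Suclg2, Fh1 and Pcx had ratios between -0.08 and 0.05 and did not pass.

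Counted over features with a value in all 22 channels, 1 glycolysis member was higher and 5 were lower in every WTC mouse than in every WT mouse, and 1 TCA member was higher and 2 were lower. Of all features 9.2% were higher and 7.13% lower in this way. The members were Hk2 and Idh2 above, and Aldoc, Eno2, Pfkfb2, Pfkm, Tpi1, Mdh1 and Mdh2 below. Of the neuron markers, 13 of 15 were negative in WTC minus WT, with a median of -0.26, and 4 of 15 were lower at an unadjusted p under 0.05. Over the 22 mice, the level of 11 of 17 glycolysis members and 14 of 23 TCA members correlated with the mean level of these markers at Pearson r of 0.60 to 0.87. Gapdh and Pkm were at 0.42 and 0.30, and Hk2, Pfkfb3, Idh2, Ogdh and Pdk4 between -0.78 and -0.44. The mice of a group share arrays, slide and lesion, and the part of neuron content in these values was not tested. Of the other marker lists in WTC minus WT, 9 of 10 astrocyte markers were positive, with a median of 0.74, beside Aldoc, which was not. All 9 striatum markers and all 6 erythroid markers measured were negative (medians -0.79 and -0.86), and all 7 choroid plexus markers and all 9 of dividing cells were positive (medians 2.70 and 2.20). Their part in the members' ratios was not tested.

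**Figure D3:**
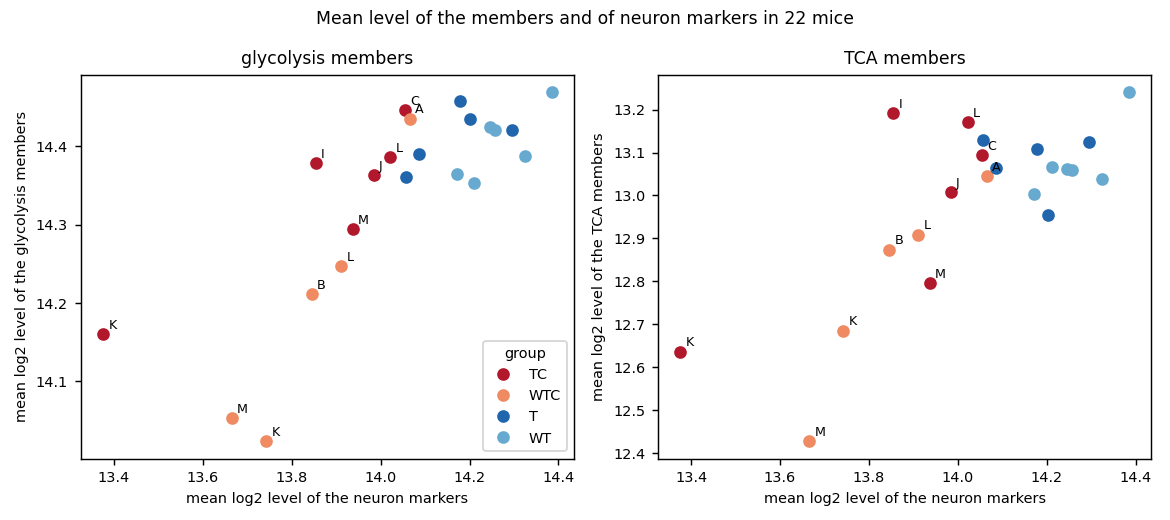
Mean log2 level of the 17 glycolysis members (left, y axis) and of the 23 TCA members (right, y axis) against the mean log2 level of 15 neuron markers (x axis), 1 point for each of 22 mice, coloured by group TC, WTC, T and WT, with array letters beside the lesioned mice. The TC mouse of array K and the WTC mice of arrays K and M are the 3 lowest on both axes, and the T and WT mice lie at neuron marker levels of 14.1 to 14.4, which the WTC mouse of array A and the TC mouse of array C also reach.

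In transgenic cortex few members differed between lesioned and intact mice. For TC minus T, 0 of 40 members passed in the ratio fit (0% of all features), and in the separate-channel fit only Hk2, described above, passed among the 39 members tested there, against 4.71% of all features higher and 2.63% lower. At an unadjusted p under 0.05 in the ratio fit 1 member, Hk2, was higher and 0 were lower, against 6.95% and 4.98% of all features. The median log2 ratio was -0.09 over the glycolysis members, 11 of 17 negative, and 0.06 over the TCA members, 16 of 23 positive. In the separate-channel fit the medians were -0.17 and -0.06, with 8 of 22 TCA members positive, so the TCA median changes sign between the fits. Within slides the ratio fit gave -0.10 and 0.00 on slide 1, with its 1 TC mouse, and -0.07 and 0.09 on slide 2. Without array I the medians were -0.07 and -0.02, without arrays I, J and K -0.06 and 0.04, and with their channel 2 labels -0.01 and 0.15. Leaving the TC mouse of array I out of the separate-channel fit left 3 glycolysis members and 1 TCA member passing, 2 of them higher and 2 lower, against 8.06% of all features higher and 4.53% lower. Tpi1, lower in every TC mouse than in every T mouse, was the 1 member measured in all channels without overlap, against 2.1% of all features higher and 2.79% lower.

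The TCA members with the smallest p in TC minus T did not pass. Suclg2, the GTP-forming ligase subunit, was at 8.67, 9.01 and 9.16 in TC mice and 8.70, 8.92, 8.95, 8.96 and 9.04 in T mice (0.20 ± 0.09, adjusted p = 0.44). Pdk1, a pyruvate dehydrogenase kinase that hypoxia is known to raise, was at 8.27, 9.15 and 9.66 in TC mice and 9.05, 9.16, 9.17, 9.33 and 9.41 in T mice (-0.30 ± 0.21, adjusted p = 0.61), and without array I its ratio was 0.01. Pcx, pyruvate carboxylase, an astrocyte enzyme that refills the cycle, was at 12.47, 12.72 and 13.12 in TC mice and 12.57, 12.57, 12.69, 12.82 and 12.94 in T mice (0.23 ± 0.18, adjusted p = 0.65). In each case the groups overlapped. Neuron markers had 12 of 15 ratios negative here, with a median of -0.23.

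In intact cortex no member differed between the genotypes by a passing test. For T minus WT, 0 of 40 members passed in either fit (0% of all features in each), and 0 had an unadjusted p under 0.05, against 0.992% of all features higher and 1.93% lower. Among members with a value in all channels, 0 separated the T from the WT mice, against 0.323% of all features higher and 0.269% lower. The medians were 0.06 over the glycolysis members and 0.02 over the TCA members. All 9 striatum, 7 choroid plexus and 8 oligodendrocyte markers were negative (medians -1.33, -1.01 and -0.42). Of the striatum markers 7 had an unadjusted p under 0.05, against 1.93% of all features lower. All 9 markers of dividing cells were positive (median 0.41), and neuron and astrocyte markers had medians of -0.07 and 0.02. The part of these tissues and cells in the members' ratios was not tested. The smallest p among glycolysis members belonged to Pgam1, with 0.16 ± 0.09, Aldoa, with 0.24 ± 0.14, and Pfkp, with 0.17 ± 0.13. Among TCA members it belonged to Pcx, with -0.33 ± 0.16, Pdk1, with 0.33 ± 0.19, and Idh3a, with 0.15 ± 0.10. Pcx was at 12.57, 12.57, 12.69, 12.82 and 12.94 in T mice and 12.67, 12.96 and 13.14 in WT mice, which overlap. The 95% interval was -0.07 to 0.22 for Gapdh, -0.15 to 0.19 for Cs and -0.28 to 0.84 for Hk2, which is the widest of the 3. The interval for Gapdh is that of its brightest probe, and its 7 probes gave T minus WT ratios from 0.07 to 0.41.

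Between lesioned mice of both genotypes most members had positive ratios, none of which passed. For TC minus WTC, 0 of 40 members passed in the ratio fit (0% of all features) and 0 of 39 in the separate-channel fit (0.135% of all features higher, 0.0269% lower). At an unadjusted p under 0.05 in the ratio fit, 6 of 17 glycolysis members and 12 of 23 TCA members were higher and 0 and 1 lower, against 6.11% of all features higher and 8.68% lower. The median log2 ratio was 0.10 over the glycolysis members, 15 of 17 positive, and 0.29 over the TCA members, 17 of 23 positive, with -0.02 over all features. On slide 2 the medians were 0.15 and 0.29. Slide 1 gave 0.11 and 0.25, which rest on 1 TC mouse set against 2 WTC mice through WT mice. Centring each array on its median in place of loess gave 0.35 and 0.54, with 0.08 over all features, and leaving out 1 array in turn gave glycolysis medians from 0.08 (without array I) to 0.16 (without array K) and TCA medians from 0.20 (without array M) to 0.43 (without array K). In the authors' deposited table, 8 glycolysis and 14 TCA members are higher and 0 and 1 lower with an adjusted p under 0.05 in this comparison, against 10.3% of all features higher and 6.17% lower there, and the medians over the 17 and 23 members are 0.31 and 0.53. Gapdh has 0.50 (adjusted p = 0.011) and Pdk4 -0.54 (adjusted p = 0.027) in the authors' deposited table. In TC minus T it lists 0 members under 0.05, against 2.4% of all features higher and 0.502% lower there.

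Gapdh had the smallest p of all members here. It was at 17.14, 17.22 and 17.30 in TC mice and 16.78, 16.82, 16.89, 17.03 and 17.17 in WTC mice. In intact cortex it was at 17.05, 17.16, 17.17, 17.19 and 17.32 in T mice and 17.04, 17.17 and 17.38 in WT mice. The TC mice lie within a narrow band that a single WTC mouse, on array A, enters. TC minus WTC was 0.39 ± 0.07 (1.31-fold, adjusted p = 0.13) in the ratio fit and 0.32 ± 0.07 (adjusted p = 0.054) in the separate-channel fit, which passed with slide as a fixed term (0.34, adjusted p = 0.035). Its 7 probes gave ratios from 0.30 to 0.77. Gapdh is often used to scale expression data.

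The next steps of the path shared this direction. Pgk1 was at 15.06, 15.45 and 15.55 in TC mice and 14.44, 14.55, 14.76, 15.20 and 15.44 in WTC mice, a difference of 0.50 ± 0.09 (adjusted p = 0.13). Pgam1 was at 15.37, 15.89 and 15.99 in TC mice and 14.79, 15.09, 15.24, 15.54 and 15.88 in WTC mice, a difference of 0.46 ± 0.09 (adjusted p = 0.13). In both genes the TC mice of arrays K and M were the lowest of their group and overlap the WTC mice. Tpi1 (0.32 ± 0.08), Aldoa (0.35 ± 0.14) and Pkm (0.22 ± 0.09) were the other glycolysis members with an unadjusted p under 0.05. Hk1, Pfkm, Pfkfb2, Pfkfb3, Gpi1, Eno1 and Eno2 had ratios between -0.02 and 0.07, although the other probe of Hk1 gave 0.34, and Hk2 one of -0.29 ± 0.25 with a 95% interval of -0.85 to 0.26.

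Of the TCA members, those with the smallest p were Sucla2, Dld and Suclg1. Sucla2 was at 13.20, 14.03 and 14.43 in TC mice and 12.69, 13.00, 13.33, 13.60 and 14.11 in WTC mice, a difference of 0.55 ± 0.11 (adjusted p = 0.13). Dld, shared by pyruvate and 2-oxoglutarate dehydrogenase, was at 11.58, 12.14 and 12.41 in TC mice and 11.12, 11.34, 11.51, 11.88 and 12.06 in WTC mice (0.46 ± 0.11). Suclg1, the common subunit of both succinyl-CoA ligases, was at 12.56, 13.36 and 13.81 in TC mice and 11.90, 12.45, 12.80, 12.98 and 13.49 in WTC mice (0.53 ± 0.13). The groups overlapped in all 3 genes, with the WTC mouse of array A the highest of its group and the TC mice of arrays K and M the lowest of theirs. Idh3b (0.58 ± 0.16), Mdh1 (0.47 ± 0.14), Pdha1 (0.45 ± 0.11), Got1 (0.42 ± 0.17), Mdh2 (0.38 ± 0.12), Idh3a (0.36 ± 0.10), Got2 (0.33 ± 0.11), Pdhb (0.31 ± 0.09) and Fh1 (0.29 ± 0.11) were also higher at an unadjusted p under 0.05. Between TC and WTC mice 0 members were without overlap, against 0.215% of all features higher and 0.235% lower. The adjusted p-values of these 9 members lay between 0.16 and 0.31. Pdk4 went the other way, with -0.48 ± 0.15 (adjusted p = 0.23), and Cs had 0.03 ± 0.08, with a 95% interval of -0.14 to 0.20.

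Each of arrays K, L and M held a TC and a WTC mouse side by side, so that the ratio within an array is free of differences between arrays. On array K the TC over WTC ratio was 0.34 for Gapdh, 0.64 for Pgk1, 0.20 for Sucla2 and -0.18 for Mdh1. On array L these genes had 0.45, 0.17, 0.56 and 0.59, and on array M 0.48, 0.52, 0.82 and 0.86. Gapdh was thus above 0 on each array by a like amount, whereas Sucla2 and Mdh1 had their lowest ratio on array K and their highest on array M. On all 3 arrays 8 of 17 glycolysis members and 7 of 23 TCA members were higher in the TC mouse, against 12.5% of all features, and 0 and 1, Pdk4, were lower, against 15.3%. The WTC mouse of array M had the lowest level of all 22 mice in 20 of the 40 members.

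**Figure D4:**
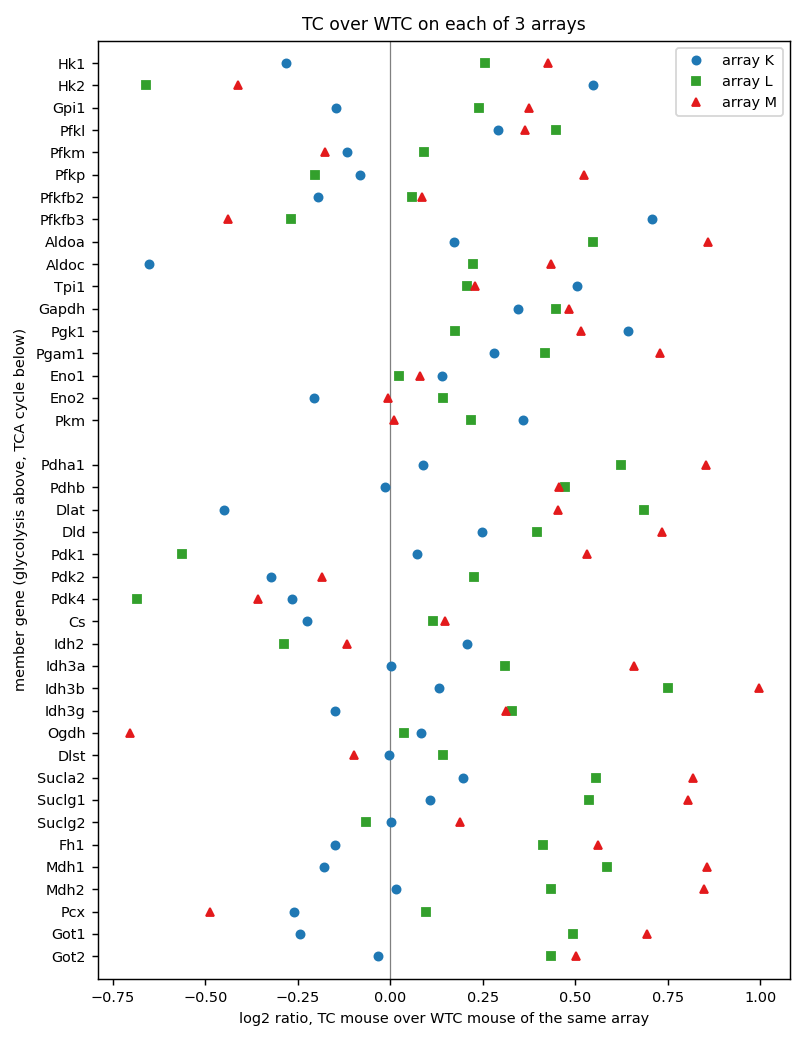
Log2 ratio of the TC mouse over the WTC mouse (x axis, dye effect removed) of each member (y axis) on array K (circles), L (squares) and M (triangles), glycolysis above and TCA cycle below. The 3 points of Gapdh, Pgk1 and Pgam1 all lie right of 0, those of Pdk4 all lie left, and for Mdh1 and Got1 array K lies left of 0.

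Neuron markers had no common direction: 7 of 15 were positive in TC minus WTC, with a median of -0.03. Their mean level differed by array. The TC and the WTC mouse were at 13.4 and 13.7 on array K, 14.0 and 13.9 on array L, and 13.9 and 13.7 on array M. Markers of microglia and macrophages had 11 of 11 ratios negative and a median of -0.15. Astrocyte markers had 7 of 10 negative and a median of -0.19. Oligodendrocyte markers had 7 of 8 negative and a median of -0.21, and endothelium markers 5 of 7 and -0.25. Erythroid markers had 4 of 6 positive and a median of 0.05. Dividing cell markers had 9 of 9 negative and a median of -0.55. Striatum markers had a median of -1.91, 9 of 9 negative, and choroid plexus markers one of -2.53, 7 of 7 negative. The part of each in the ratios of the members was not tested. With the channel 2 labels of arrays I, J and K in place of the titles the medians of the members were 0.18 and 0.37, and without these arrays 0.21 and 0.42.

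The difference between the lesion effects, TC minus T less WTC minus WT, tests whether the lesion acted differently in the genotypes. In either fit 0 members passed (0% of all features in each). At an unadjusted p under 0.05 in the ratio fit, 4 of 17 glycolysis and 6 of 23 TCA members were positive and 0 and 1 negative, against 2.93% and 2.45% of all features. The median was 0.12 over the glycolysis members, 12 of 17 positive, and 0.21 over the TCA members, 20 of 23 positive. The glycolysis members with the smallest p were Gapdh, at 0.32 ± 0.08, Pgk1, at 0.39 ± 0.12, and Tpi1, at 0.26 ± 0.10, and the TCA members Sucla2, at 0.52 ± 0.15, Pdhb, at 0.30 ± 0.11, and Suclg1, at 0.45 ± 0.17. Their adjusted p was 0.81 each. This contrast and TC minus WTC share the lesioned mice, so these values are not separate evidence.

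Idh3a, a TCA gene that varied with many others, was at 12.89, 13.46 and 13.56 in TC mice and 12.51, 12.89, 13.07, 13.20 and 13.34 in WTC mice. It was at 13.38, 13.39, 13.40, 13.46 and 13.57 in T mice and 13.23, 13.30 and 13.61 in WT mice. Intact mice stayed within a narrow band and lesioned mice of both genotypes reached below it, with the WTC mouse of array M lowest. The features most like it over the 22 mice were Uqcrfs1, a subunit of respiratory complex III, Nedd8, a ubiquitin-like protein, Gtf3c3, a subunit of transcription factor TFIIIC, Gars, a glycyl-tRNA synthetase, and Mrpl15 of the mitochondrial ribosome, with Pearson r between 0.955 and 0.967. The mice share arrays and lesion, and the values are a description.

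Other genes of these paths were counted in the same way. Of 28 other genes of glycolysis and its branches 25 were measured, with a median of -0.03 in WTC minus WT, where in the separate-channel fit 3 rose and 4 fell, shares near those of all features (14.3% and 12.1%). Pfkfb4, another isoform of the enzyme that activates phosphofructokinase (0.89 ± 0.16, adjusted p = 7.9e-04), and Hk3, a hexokinase known from myeloid cells (1.63 ± 0.33, adjusted p = 0.0023), were among those that rose. Ldhb, the heart-type lactate dehydrogenase (-0.60 ± 0.13, adjusted p = 0.0037), was among those that fell. Of 30 other genes around the TCA cycle 29 were measured, with a median of -0.13 in WTC minus WT, 2 rising and 7 falling, and 0.09 in TC minus WTC, where 0 passed. Slc25a12, the mitochondrial aspartate-glutamate carrier that works with Mdh1 and Got2, fell in WTC minus WT (-0.68 ± 0.14, adjusted p = 0.0027) and was at 0.37 ± 0.12 in TC minus WTC (adjusted p = 0.23). Slc25a1, the citrate carrier, rose in TC minus T (0.48 ± 0.09, adjusted p = 0.0048), as did Me1, cytosolic malic enzyme (0.44 ± 0.11, adjusted p = 0.021). They were the 2 of 29 that passed there in the separate-channel fit, where 4.71% of all features rose and 2.63% fell.

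The pentose phosphate pathway, which branches off after hexokinase and makes NADPH, had mostly positive ratios after the lesion. Of 9 genes 8 were measured, with medians of 0.29 in WTC minus WT, where 7 of 8 were positive, and 0.30 in TC minus T, where 8 of 8 were. In the separate-channel fit 3 rose in WTC minus WT: Pgd (0.71 ± 0.14, adjusted p = 0.0018), H6pd (0.71 ± 0.20, adjusted p = 0.014) and Tkt (0.25 ± 0.09, adjusted p = 0.045). In TC minus T, G6pdx, the entry enzyme, and Pgd rose (0.71 ± 0.14 and 0.54 ± 0.14, adjusted p = 0.0065 and 0.027). Of all features, 14.3% rose in WTC minus WT and 4.71% in TC minus T by that fit. The median of the pathway was 0.0090 in T minus WT and -0.04 in TC minus WTC, and 0 of 8 passed in either.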

How the data were processed

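The authors deposited Agilent Feature Extraction 10.7.3.1 output, per the file headers: linear spot and background intensity values (median pixel brightness), not normalized, and a log10 ratio used here only as an alternative. A further table the authors deposited holds ratios, read here as log2 values although the base is not stated, and adjusted p-values of 3 comparisons. Its p-value column for WTC minus WT holds values above 1 and was not used. The settings of the authors' fit are not given in the sources used here.

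In limma 3.58.1 under R 4.3.3, background was corrected with normexp (offset 50), arrays were normalized by loess with outlier and control spots at weight 0, and spots of a probe were averaged. Of 55681 probes, 26762 (48.1%) matched 1 symbol through their RefSeq accession, and the filter on dim probes (5 or more of 22 channels well above background) kept 35576. The brightest probe stood for a gene, 9 members having several. The ratio fit had coefficients for TC, WTC and T relative to WT, with a term for the dyes (7 residual degrees of freedom). The separate-channel fit used Aquantile normalization and an intraspot correlation of 0.32 (17 residual degrees of freedom). Both were checked on simulated ratios for whether mean estimates recover known differences. The simulated noise was independent between arrays and held no slide effect, so the check cannot speak to calls that depend on slide. Each mouse appears in 1 channel, and the number of arrays limits precision. The plan had named mean signals, and the files hold median signals, which were used.

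The members, the other lists and the markers were chosen with earlier results of these data known. Genes were described mouse by mouse if they passed in either fit (up to 6 per direction by size), or, with under 3 passing, had the 3 smallest p, along with Hk1, Hk2, Pfkfb3, Aldoc, Eno1, Eno2, Pkm, Pdk4, Cs and Idh3a; the 5 features most like Hk2 and Idh3a by Pearson r were named, except those that are not reported here. Promoter sequences are RefSeq's, GRCm38.p6.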

Additional observations from a re-analysis of the deposited data

Results flagged for a closer look

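In 160 combinations of a member and a group, 12 mice lay far from the rest of their group by Dixon's criterion at the 95% level, which chance alone meets in about 1 of 20 groups. The WT mouse of array A accounts for 7 of them, each a high level: Aldoc at 17.36 (16.88 to 17.00 in the other WT mice), Pgk1 at 15.68 (15.23 to 15.34 in the other WT mice), Idh3a at 13.61 (13.23 to 13.33 in the other WT mice), Idh3g at 15.01 (14.69 to 14.80 in the other WT mice), Sucla2 at 14.44 (13.96 to 14.08 in the other WT mice), Suclg1 at 13.70 (13.15 to 13.31 in the other WT mice) and Fh1 at 13.17 (12.82 to 12.94 in the other WT mice). In the WT mouse of array C, Aldoa was at 17.57, against 17.32 to 17.40 in the other 5 WT mice. In the T mouse of array F, Dld was at 12.40, against 12.11 to 12.14 in the other 4 T mice. In the WTC mouse of array M, Fh1 was at 12.33, against 12.77 to 12.91 in the other 4 WTC mice. In the WTC mouse of array M, Mdh1 was at 14.07, against 14.66 to 14.90 in the other 4 WTC mice. In the TC mouse of array K, Mdh2 was at 15.48, against 16.03 to 16.28 in the other 5 TC mice. The array A mouse also had the highest level of all 22 mice in 14 of the 40 members, and the WTC mouse on the same array lay highest of its group in several. No cause was tested.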

How the results depend on the processing

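Of 1666 recomputed values of 61 differences of single members under 17 alternatives and with each of 11 arrays left out, 1583 kept their direction and side of the threshold, 75 passed where the ratio fit had not, and 8 changed sign. Members that passed in WTC minus WT numbered 0 in the ratio fit and, for glycolysis and TCA members, 1 and 3 on slide 1 alone, 4 and 6 after dropping arrays I to K, 1 and 1 when the Xist ratio was a covariate, 10 and 10 in the separate-channel fit, 4 and 4 in that fit with slide as a fixed term, and 12 and 12 when it left out the array I mouse of the TC group. Leaving out 1 array in turn gave 0 to 3 and 0 to 4, with the highest for array I. Over all features 6 were higher and 0 lower in the ratio fit of WTC minus WT, and 3721 and 3156 in the separate-channel fit, 2398 and 1042 with slide as a fixed term, 4193 and 4182 when the array I mouse was dropped from it, 1347 and 401 after dropping arrays I to K, 237 and 45 with the Xist covariate, 1437 and 719 on slide 1, 1239 and 199 without array I, and 1211 and 365 without array K. In TC minus T, 1 glycolysis member passed in the separate-channel fit, and 3 glycolysis members and 1 TCA member without the TC mouse of array I. In TC minus WTC, 1 glycolysis member, Gapdh, passed in the separate-channel fit with slide as a fixed term, against 0.377% of all features higher and 0.0924% lower. Gapdh also passed in that fit without the TC mouse of array I (adjusted p = 0.04999), against 0.158% of all features higher and 0.0192% lower. Centring each array on its median in place of loess moved the glycolysis and TCA medians to -0.44 and -0.42 (WTC minus WT), 0.35 and 0.54 (TC minus WTC) and 0.32 and 0.43 (difference of lesion effects), and that of all features to -0.10, 0.08 and 0.08. Signs turned for Pdk1 in TC minus T (0.0186 on slide 1, 0.0210 with the channel 2 labels, 0.0892 without arrays I to K, and -0.38 to 0.00671 with 1 array left out, positive without array I), Pcx in TC minus T (-0.0651 without arrays I to K, -0.00591 without the TC mouse of array I), Pfkfb3 in TC minus T (-0.26 with the channel 2 labels) and Aldoa in TC minus WTC (-0.19 on slide 1). The causes were not tested.

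No paired analysis was possible because no replicate number links mice across groups; the pairing of mice on an array enters both fits already. Arrays are few, WT mice lie on 1 slide, 3 arrays have contradictory labels, and levels of a tissue mixture with varying striatum and choroid plexus content set the limits. All member probes were well above background.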
